A study of Caenorhabditis elegans with 4 samples.

Results

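Linker histones, the H1 family, bind the DNA that enters and leaves the nucleosome and help to pack nucleosomes into more compact chromatin. *C. elegans* has a small family of linker histone genes, *his-24* and the *hil* (histone H1-like) genes. *his-24*, the best studied of them, is known for roles in germline development and in keeping genes silent in germ cells. Core histone mRNAs made during DNA replication end without a poly(A) tail in most animals, but *his-24* is known to give a polyadenylated mRNA, so it can be measured in libraries selected for poly(A).

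The 8 genes *his-24*, *hil-1*, *hil-2*, *hil-3*, *hil-4*, *hil-5*, *hil-6* and *hil-7* were chosen by gene symbol out of 46095 listed genes, of which 19518 were protein-coding. The family was picked with the FPKM values of these libraries already known, so its levels and stage differences are given as a description. The libraries hold poly(A) RNA of whole worms of the *prg-1* mutant (*wm161*), which lacks wild-type function of the Piwi protein that binds 21U-RNAs. Worms were grown at 20°C on OP50 bacteria and taken at 4 larval stages (L1 to L4), with 1 library a stage and the same genotype in all 4 libraries. No wild-type library was analysed here, so none of the values tells what the mutation does to these genes. Levels are FPKM (fragment counts adjusted for transcript length and for library size), followed in parentheses by the 95% interval that Cufflinks gave. That interval covers error within a library, and the spread between cultures is unknown, so no p-value is given for any difference between stages.

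The libraries were close in depth. Relative to L1, the steps of low values gave a depth of 1.005 for L2, 1.038 for L3 and 1.053 for L4. Markers of body wall muscle, pharynx, intestine, epidermis, neurons and germline, 3 genes for each, all stood at an FPKM of at least 1 in every library. Sperm markers (*msp-10*, *msp-57* and *spe-9*) did so for 2, 0, 0 and 2 of 3 genes from L1 to L4, and oocyte and yolk markers (*rme-2*, *vit-2* and *vit-6*) for 3, 1, 1 and 3. The L1 library stood apart from L2 and L3 in these genes, with sperm markers summing to 28.04, 1.95, 0.726 and 11.5 FPKM over the stages and oocyte and yolk markers to 13.1, 2.02, 2.26 and 154. Their part in differences from L1 was not tested. *prg-1* itself was listed at 11.02 to 23.6 FPKM, which is 1 value a gene and cannot separate an altered transcript from an intact one. All 8 linker histone genes had an estimate with status OK in all 4 libraries.

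The 8 genes lie apart on chromosomes I, IV, V and X. In the coordinates of the files (build ce10 according to the submitters' processing notes), *his-24* (M163.3) is at X:14490107-14491111 and *hil-3* (F22F1.1) at X:8159154-8160086. *hil-2* (Y73B6BL.9) is at IV:6294240-6295220 and *hil-7* (C01B10.5) at IV:6646034-6646939. *hil-1* (C30G7.1) is at V:14949777-14952792, *hil-4* (C18G1.5) at V:4754313-4755473 and *hil-6* (F59A7.4) at V:2030657-2031475. *hil-5* (B0414.3) is at I:5774585-5775610. In the WBcel235 annotation *his-24* and *hil-2* to *hil-6* have 2 exons in their longest transcript, which is 756 to 955 bases long. *hil-7* is shorter, with 516 bases in 3 exons, and *hil-1* has 910 bases in 5 exons spread over a longer span. The deposited start of *hil-7*, 6646034, lies before its annotated start at 6646312, so its FPKM may rest on a transcript of another length. Only *hil-6* is on the reverse strand. Only *his-24* overlaps other listed genes.

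The 8 genes differed in their course over larval development. *his-24*, *hil-2* and *hil-3* made up most linker histone RNA at L1 and stood lower at L3 and L4. *hil-4* and *hil-5* stood higher at each later stage. *hil-7* peaked at L2, where *hil-1* had its lowest value. *hil-6* was at or near 0 throughout.

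**Figure D1:**
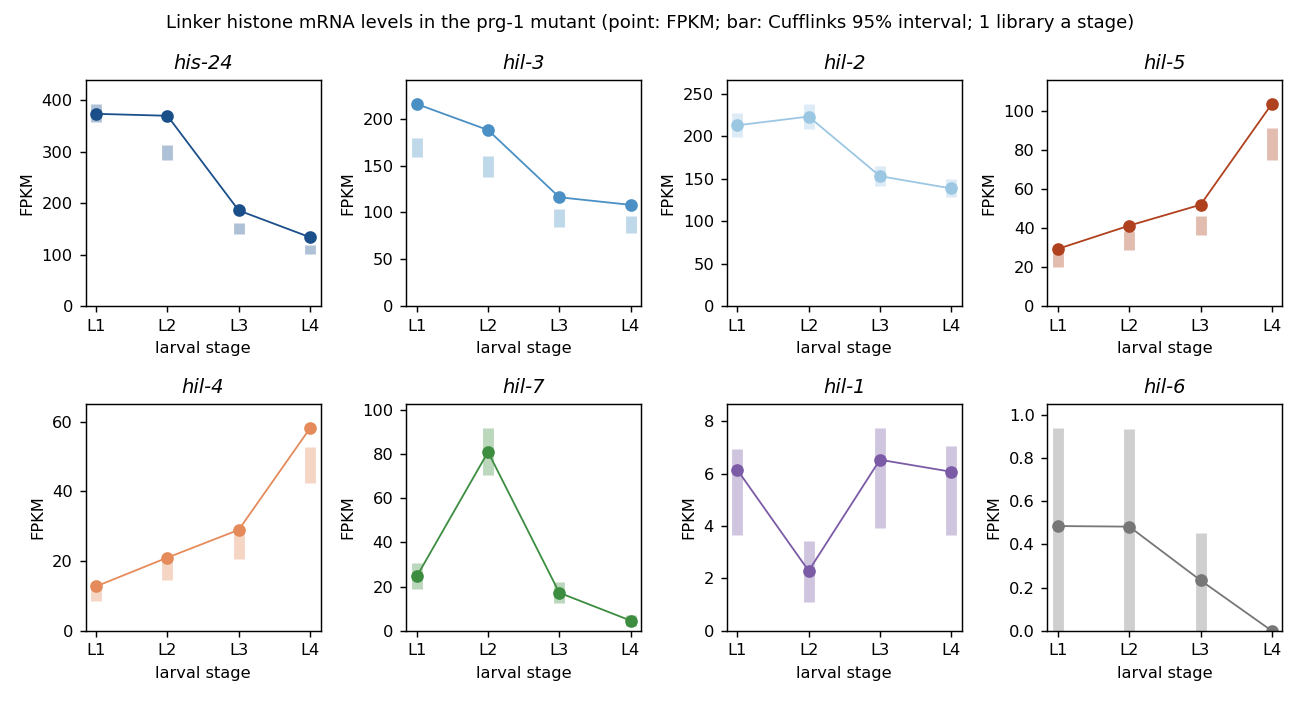
FPKM of each linker histone gene at L1, L2, L3 and L4, with a separate linear axis from 0 for each gene. Points are the FPKM of the 1 library at a stage and bars its Cufflinks 95% interval. *hil-7* reaches 80.9 at L2 and 4.62 at L4, and the points of *hil-3* and *hil-5* lie above their own bars at all 4 stages.

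*his-24* was the most abundant member at L1 and L2. At L3 it was first by point value alone, since its interval overlaps that of *hil-2* and its share of the summed midpoints was 31.0%, against 31.4% for *hil-2*. Its FPKM was 373 (357 to 392) at L1, nearly equal at 369 in the L2 library, then 186 at L3, and 134 in the L4 library. The values at L2, L3 and L4 lie above their own intervals, which were 283 to 312, 141 to 161 and 101 to 118, while the value at L1 lies inside. At L4 *his-24* was thus lower than at L1 by point value and by interval, with a log2 difference of -1.47 on the log2(FPKM + 1) scale. This met the rule of size used for every comparison: a difference of at least 2-fold on that scale, 1 FPKM or more in one stage of the pair, and intervals that did not overlap. At L3 against L2 its log2 difference was -0.99, with intervals apart, which is just under 2-fold. At L2 against L1 the point values and the intervals differ in what they show. The FPKM was nearly the same (log2 difference -0.01), whereas the interval at L2 lay wholly below that at L1, and its midpoint was 20.5% lower. Among detected protein-coding genes *his-24* ranked 330 of 16381 at L1 and 841 of 16091 at L4.

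**Figure D2:**
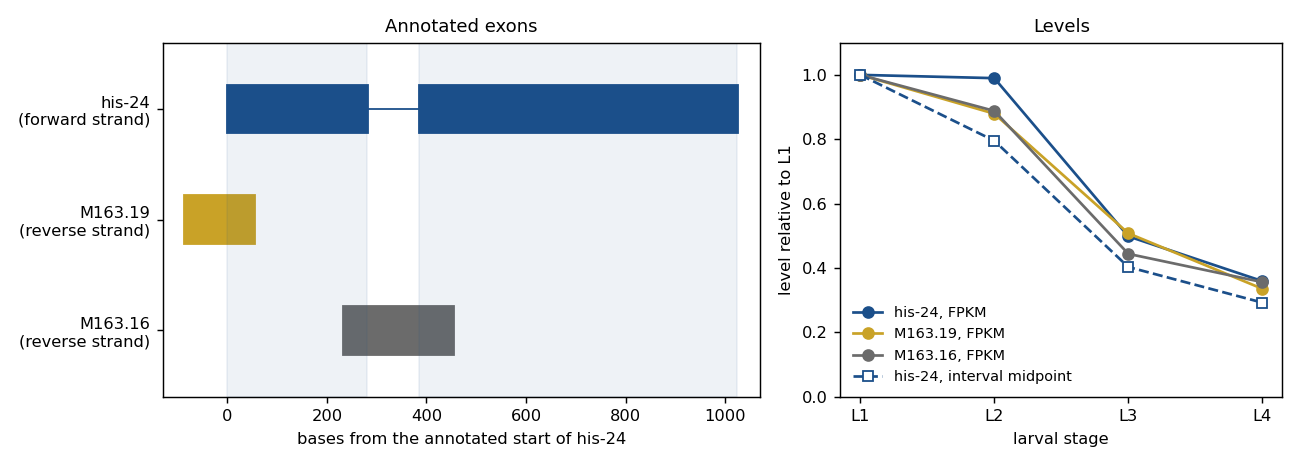
Left, annotated exons (WBcel235) of *his-24* and of the reverse-strand genes M163.19 and M163.16, in bases from the start of *his-24*, with its exons shaded. Right, level at L1 to L4 relative to L1, as FPKM for the 3 genes and as the interval midpoint for *his-24*; at L4 the 4 lines end between 0.293 and 0.359.

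The *his-24* locus holds another source of uncertainty. M163.19 and M163.16, both non-coding RNA genes of the reverse strand, share bases with its exons. M163.19 (143 bases) has 55 of its bases in exon 1 of *his-24*. M163.16 (222 bases) spans the intron and has 49 bases in exon 1 and 70 in exon 2. M163.16 was listed at 896 (803 to 990), 796 (708 to 881), 398 (339 to 459) and 319 (264 to 372) FPKM from L1 to L4. Its FPKM ratio to *his-24* stayed between 2.14 and 2.40, but the *his-24* values at L2, L3 and L4 lie above their own intervals. By interval midpoint *his-24* at L4 was 0.293 of its L1 level, against 0.356 for the FPKM of M163.16. M163.19 was listed at 5504 FPKM at L1, far above its own interval of 298 to 379, and at 1847 at L4. Whether strand was used in counting is not given, so reads of *his-24* and of these overlapping genes cannot be told apart. Whether they bear on the course of *his-24* was not tested.

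*hil-2* and *hil-3*, which encode other H1 proteins, were the next most abundant. *hil-2* had an FPKM of 213 (199.4 to 226.97) in the L1 library, 223 (209 to 238) in the L2 library, 153 (142 to 164) in the L3 library and 139 (128 to 149) in the L4 library, every value inside its interval. The intervals at L1 and L2 overlap, those at L3 and L4 overlap, and the later pair lies wholly below the earlier pair. Its log2 difference at L4 against L1 was -0.61, under the 2-fold rule. *hil-3* had 215, 188, 116 and 108 FPKM from L1 through L4, all above their own intervals of 159 to 180, 138 to 160, 84.4 to 103.7 and 78.5 to 95.9. Its intervals form the same pairs, with L3 and L4 below L1 and L2. At L4 against L1 its log2 difference was -0.99, just short of 2-fold.

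*hil-4* and *hil-5* had the opposite course. *hil-5* had 29.5, 41.4, 52.1 and 103.8 FPKM from L1 through L4, each above its own interval of 20.1 to 28.8, 28.7 to 38.5, 36.7 to 46.5 and 74.9 to 91.2. *hil-4* stood at 12.8 (8.53 to 13.7), 21.0 (14.6 to 21.6), 28.9 and 58.1 FPKM, the last values being above their intervals of 20.6 to 28.5 and 42.5 to 52.8. The intervals of neighbouring stages up to L3 overlap, except that *hil-4* at L2 lay wholly above L1. The L4 interval of each gene is wholly above its others. Both genes rose at L4 against L1, *hil-4* by a log2 difference of 2.102 and *hil-5* by 1.78, which are 4.55-fold and 3.51-fold in FPKM. At L4 against L3 the log2 difference was 0.98 for each, with intervals apart, just under the fold the rule asks for. With a pseudocount of 0.1 in place of 1, *hil-4* passed it at 1.00. The log2 courses of these 2 genes were the most alike of any pair among the 7 members above 1 FPKM, with a root mean square distance of 0.13 over the 4 libraries after each was centred on its mean. *hil-2* and *hil-3* came next at 0.16.

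*hil-7* had the widest range of any member that was detected at all stages. Its FPKM was 24.6 (18.7 to 30.5) in the L1 library, 80.9 (70.2 to 91.5) in the L2 library, 17.2 (12.6 to 21.9) in the L3 library and 4.62 (2.02 to 7.29) in the L4 library, all inside their intervals. Its highest value was 17.5 times its lowest. It rose at L2 against L1 (log2 difference 1.68, with 1.18 to 2.23 allowed by the intervals), fell at L3 against L2 (-2.17, -2.77 to -1.64) and fell again at L4 against L3 (-1.69, -2.92 to -0.71). At L4 against L1 it also fell, with a log2 difference of -2.19. Among protein-coding genes tested at L3 against L2 its difference lay at percentile 0.304. The summed epidermis markers (*dpy-7*, *elt-3* and *rol-6*) were also highest at L2, with 245.3, 862.3, 563.02 and 549.5 FPKM over the stages, and their part in the course of *hil-7* was not tested. The annotation gives *hil-7* 4 transcripts, and 1 value per gene does not show which were made.

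*hil-1*, which encodes a divergent H1-like protein known from marginal cells of the pharynx, was low and dipped at L2. Its FPKM was 6.14 (3.66 to 6.93) in the L1 library, 2.29 (1.08 to 3.45) in the L2 library, 6.53 (3.91 to 7.73) in the L3 library and 6.08 (3.67 to 7.06) in the L4 library. The L2 interval lies below the other 3, which overlap. By the rule it was lower at L2 than L1 (log2 difference -1.12, -1.93 to -0.07 by the intervals) and higher at L3 than L2 (1.20, 0.14 to 2.07). The first of these calls was lost under median-ratio scaling (-1.02, intervals overlapping) and with interval midpoints in place of FPKM (-0.95). Summed markers of pharynx were 247.9, 239.6, 221.8 and 185.8 FPKM from L1 to L4. These 3 markers (*myo-1*, *myo-2* and *tnc-2*) are genes of pharyngeal muscle and not of marginal cells, and the part of cell makeup in the course of *hil-1* was not tested.

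*hil-6* stood at 0.485 (0 to 0.936), 0.482 (0 to 0.931), 0.233 (0 to 0.451) and 0 FPKM. Brought to the depth of L1, the values at L1 and L2 were 1.999 and 1.998 times that at L3. No difference between stages can be read at this depth. Another gene carrying the family name, *hil-8* (T05E8.2), was not counted among the members. It was listed at 0.342 (0 to 0.577) FPKM at L1 and at 0 at the other stages.

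Because FPKM is per length, the members were added, taking poly(A) selection to have caught each alike, which was not tested. Their summed FPKM from L1 to L4 was 875, 926, 560.3 and 553. The sums of the interval bounds were 766 to 880, 744 to 867, 441 to 534 and 430 to 522 in the same order. At L2, L3 and L4 the summed FPKM lies above these bounds. By interval midpoints the sum at L2 was 0.979 times that at L1, against 1.06 by FPKM. The sum at L4 was 0.579 times that at L1 by midpoints, against 0.632 by FPKM. The step lies between L2 and L3, where the sum at L3 was 0.605 times that at L2, and the sums at L1 and L2 overlap, as do those at L3 and L4. Without *his-24* the sum at L4 was 0.836 times that at L1, against 0.632 with it. In whole worms, fewer cells of a type and less RNA per cell cannot be told apart.

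**Figure D3:**
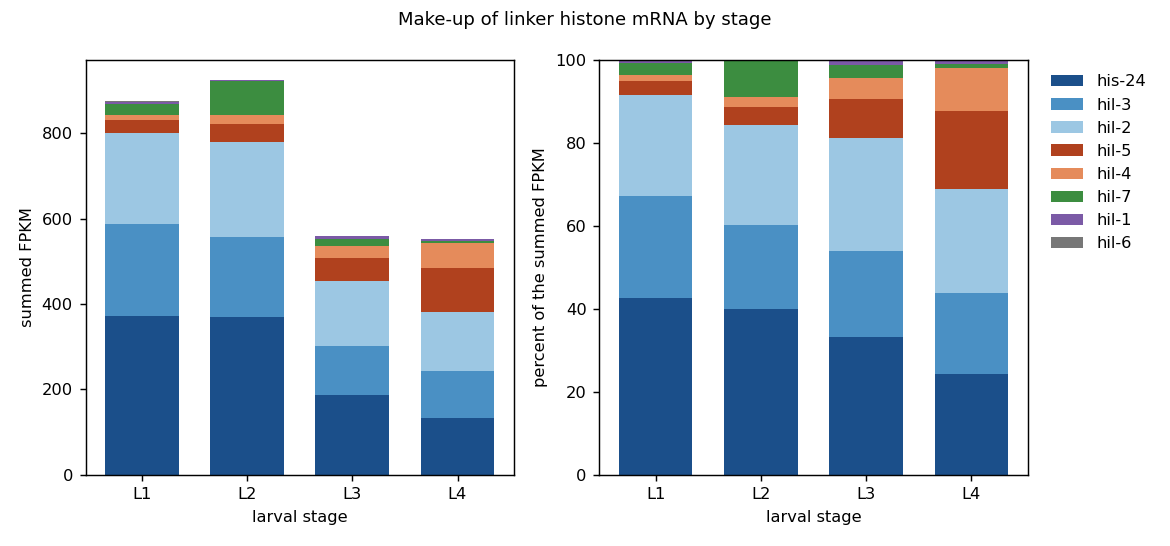
Left, FPKM of the 8 linker histone genes stacked at each stage (y axis from 0); right, the same as a percent of the sum. *his-24*, *hil-2* and *hil-3* together take 91.6% at L1 and 68.8% at L4, while *hil-4* and *hil-5* take 4.83% and 29.2%.

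The make-up of the sum differed between stages as well. *his-24* held 42.7%, 39.9%, 33.2% and 24.2% of it from L1 to L4. *hil-4* and *hil-5* together held 4.83%, 6.74%, 14.5% and 29.2%. *hil-7* held 8.73% at L2 and no more than 3.07% at any other stage. From interval midpoints *his-24* held 45.5% at L1 and 23.0% at L4. The order of the members changed with it. At L1 *his-24* stood above *hil-3* and *hil-2*. The point values of 215 FPKM for *hil-3* and 213 FPKM for *hil-2* put *hil-3* first, whereas the interval of *hil-2* lies wholly above that of *hil-3*. *hil-5* and *hil-7* could not be ordered by interval at L1. At L3 *his-24* and *hil-2* overlapped, as did *hil-4* and *hil-7*. At L4 *hil-2* was first with 139 FPKM and *his-24* second with 134, and *hil-3* at 108 and *hil-5* at 103.8 overlapped, as did *hil-1* and *hil-7* at the lower end.

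Set against all protein-coding genes, 7 of the 8 members could be tested in each comparison, *hil-6* being below 1 FPKM. At L2 against L1, 1 member (*hil-7*) was higher, beside 7.0% of the 13113 genes tested, and 1 (*hil-1*) was lower, beside 2.59%. At L3 against L2, 1 (*hil-1*) was higher, beside 1.74% of 12818 genes, and 1 (*hil-7*) was lower, beside 3.29%. At L4 against L3 none was higher, beside 3.84% of 12976 genes, and 1 (*hil-7*) was lower, beside 0.532%. At L4 against L1, 2 (*hil-4* and *hil-5*) were higher, beside 10.3% of 13363 genes, and 2 (*his-24* and *hil-7*) were lower, beside 4.66%. The median log2 difference of the 7 members was 0.07, -0.54, -0.10 and -0.61 in these comparisons, which share libraries, against -0.12, -0.03, 0.00 and -0.10 over all genes tested. With members moving in both directions, a median describes few of them, and since the values were known when the family was picked, nothing is read from these counts.

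**Figure D4:**
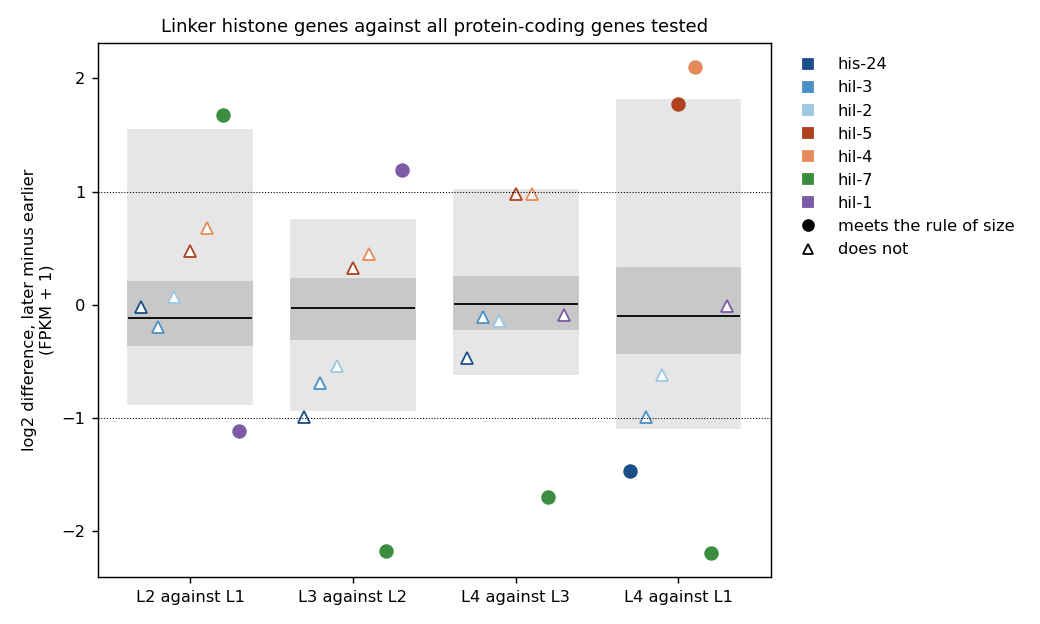
Log2 difference of FPKM + 1, later minus earlier stage, for the 7 members tested, in 4 comparisons. Filled circles meet the rule of size and open triangles do not; light and dark grey boxes span percentiles 5 to 95 and the middle 50% of all protein-coding genes tested, with their median as a line. *hil-7* lies below the grey box in the last 3 comparisons and above it in the first.

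Other chromatin genes were followed for comparison, from lists of genes known to act with histones. None of the 20 genes of heterochromatin and repressive chromatin proteins met the rule in any comparison. Over all genes tested, 0.532% to 10.3% met it, depending on comparison and direction. The median of the 20 genes at L4 against L1 was -0.35 on the log2 scale, beside -0.10 over all genes tested. *hda-1*, a histone deacetylase, had 78.1, 57.9, 54.03 and 50.8 FPKM from L1 through L4, *let-418*, a Mi-2 remodeller, had 60.3, 47.0, 39.9 and 42.6, and *mrg-1*, a chromodomain protein, had 38.2, 26.1, 28.8 and 29.2. *hpl-2*, a heterochromatin protein of the HP1 family, stood between 24.2 and 30.4 FPKM and *sir-2.1*, a deacetylase known to bind HIS-24, between 9.99 and 13.6.

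Of 9 variant histone genes, 6 to 8 could be tested. At L4 against L3, 1 of them was higher, beside 3.84% of all genes tested. It was *his-70*, an H3.3 gene listed at 1.27 FPKM at L4 and 0 at L3, close to the 1 FPKM minimum of the rule. None met the rule in the other comparisons, and the median at L4 against L1 was 0.04, beside -0.10 over all genes tested. *htz-1*, the H2A.Z gene, stood at 522, 424, 327 and 328 FPKM, and the H3.3 gene *his-72* at 322, 295, 221 and 208. *his-35*, an H2A gene, stood at 234, 174, 180 and 168 FPKM. Of 12 histone chaperone genes, 11 were tested at L4 against L1, since the estimate of *spt-16* failed at L4. Of these 11, 1 was higher, *hmg-3*, beside 10.3% of all genes tested. Their median was -0.39, beside -0.10 over all genes tested. *nap-1*, a nucleosome assembly protein, stood at 399, 360, 426 and 490 FPKM, *lin-53*, an RbAp48 relative, at 70.5, 49.7, 38.3 and 46.2, and *hmg-4*, a FACT subunit, at 58.3, 39.4, 37.0 and 32.3.

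**Figure D5:**
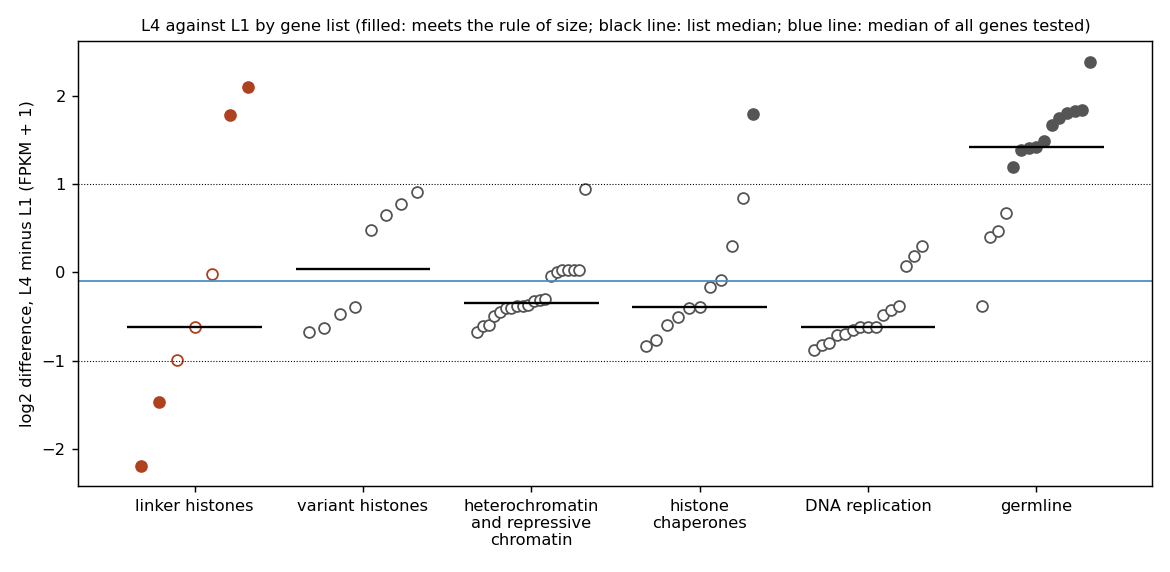
Log2 difference of FPKM + 1 at L4 against L1 for linker histone genes and 5 other lists, 1 point a gene tested. Filled points meet the rule of size, black lines are list medians and the blue line is the median of all genes tested. Linker histone genes run from -2.19 to 2.102, and 11 of 15 germline genes are filled.

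Genes of the germline and of DNA replication were followed over the same stages. Of 15 germline genes, 11 were higher at L4 than L1, beside 10.3% of all genes tested, and none was lower, beside 4.66%, the median being 1.42 on the log2 scale, beside -0.10 over all genes tested. The 11 were *glh-1*, *gld-1*, *pgl-1*, *htp-3*, *glp-1*, *him-3*, *pgl-3*, *oma-1*, *glh-4*, *fbf-1* and *fbf-2*, and *glh-1* had the largest difference of them at 2.39. At L4 against L3, 6 of the 15 were higher, beside 3.84% of all genes tested, with a median of 0.86. *glh-1*, a germ granule helicase, had 13.5, 25.1, 31.8 and 74.5 FPKM from L1 through L4 while *cgh-1*, a germline RNA helicase, had 75.4, 64.6, 63.2 and 99.5. *mex-3*, an RNA-binding protein, stood at 31.6, 30.1, 21.2 and 23.9 FPKM. The summed germline markers *glh-1*, *pgl-1* and *gld-1* were 30.4, 45.1, 61.7 and 136 FPKM beside the courses of *hil-4* and *hil-5*, and their part in those courses was not tested. None of 15 DNA replication genes met the rule in any comparison, beside 0.532% to 10.3% of all genes tested, depending on comparison and direction. The medians of the replication genes were -0.53 at L2 against L1, -0.41 at L3 against L2, 0.44 at L4 against L3 and -0.62 at L4 against L1. Over all genes tested the medians were -0.12, -0.03, 0.00 and -0.10 in the same order. *pcn-1*, the PCNA gene, stood at 107, 66.7, 52.4 and 57.6 FPKM. *rnr-1*, a ribonucleotide reductase gene, stood at 68.2, 55.0, 36.5 and 50.5 FPKM and *rpa-1*, which encodes a single-strand DNA-binding subunit, at 51.6, 35.2, 29.0 and 32.5. At L4 against L3 *his-24* had a log2 difference of -0.47, at 134 FPKM against 186, and the median over all genes tested was 0.00. At L3 against L2 *his-24* had -0.99, beside the replication median of -0.41 and -0.03 over all genes tested.

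Among 4197 other named protein-coding genes at 5 FPKM or more in all 4 libraries, the courses nearest to that of *his-24* were those of *srr-4* (34.5, 34.0, 17.2 and 12.5 FPKM from L1 to L4), the innexin gene *inx-3* and *sup-26*, at root mean square distances of 0.03, 0.07 and 0.10 on the centred log2 scale over 4 libraries. The search used FPKM, which for *his-24* was 1.24 times the interval midpoint at L2 and 0.997 times at L1. Interval midpoints were not searched, and the genes nearest to *his-24* could differ by them. Nearest to *hil-2* were *aha-1*, a partner of bHLH-PAS transcription factors (19.2, 19.4, 13.3 and 11.6 FPKM), the dosage compensation gene *dpy-21* and the receptor phosphatase gene *ptp-3*, each at 0.03. Nearest to *hil-3* were *irx-1*, an Iroquois homeobox gene (26.7, 24.97, 14.2 and 14.002 FPKM), *nhr-3* and the folliculin gene *flcn-1*, at 0.05 to 0.06.

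The intervals limit how closely these values can be read. Of the 32 values of the 8 genes, 13 lie above their own interval (4 each of *hil-3* and *hil-5*, 3 of *his-24* and 2 of *hil-4*). Of the detected values of all protein-coding genes, 9.66% lie above or below theirs. The 32 values include the 0 of *hil-6* at L4, which is not a detected value. For *hil-3* and *hil-5* the FPKM was 1.21 to 1.27 times the interval midpoint at every stage, so their relative courses are much the same by either, while for *his-24* this ratio was 1.24 at L2, against 0.997 at L1.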

How the data were processed

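For each of 4 larval stages of the *prg-1* mutant, 1 poly(A) library was sequenced. The authors used TopHat2 (2.0.8) for mapping and Cufflinks (2.1.1) for levels, per the labels, which name build ce10. How strand and reads with several matches were treated, and which annotation version, was not given in the sources used here. Deposited values are FPKM per gene with a 95% interval and a status. Of 46096 rows, 1 name was listed at a second place, and its first row was kept. Biotypes came from RefSeq and Ensembl WBcel235 annotation.

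Values were compared in Python (3.11.15) with numpy (2.4.6) and pandas (2.3.3) over all protein-coding genes with status OK, on log2(FPKM + 1), which understates differences of low genes. A call needed a 2-fold difference on that scale, 1 FPKM or more in one of the stages and intervals apart. The rule for calls and the search for nearest courses were tested on simulated data. The calls were simulated from genes at 5 FPKM or more at L1 with values inside their intervals. Values outside their own interval were thus not covered. Relative depth was taken from the commonest ratio of values below 1 FPKM. Stages were grouped by sample title, and with 1 library each no test was run. Alternatives changed the pseudocount, filter, scaling and use of intervals. Interval midpoints were added after the data were seen.

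The members and lists were chosen with earlier results of these data known. Named genes are the members, the 3 most abundant genes of each list, any list gene that met the rule and the 3 nearest courses to the 3 most abundant members. Other names (*hil-8*, M163.19, M163.16, *hpl-2*, *sir-2.1*, *spt-16*, *asfl-1*, *unc-85*, *rba-1*) were chosen after their values were seen. Protein alignment was planned and not run.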

Additional observations from a re-analysis of the deposited data

How the results depend on the processing

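No paired analysis was possible because the 4 stages are single libraries, and no replicate could be left out. Of 209 recomputed values of single members, 206 kept their call and none changed sign where called. Dropping the minimum FPKM, the intervals or genes outside their own interval leaves the log2 value of a member as it was. The count of 206 is therefore no measure of how firm the calls are. The calls that changed were *hil-1* at L2 against L1, which left 0 members lower under median-ratio scaling and with interval midpoints, and *hil-4* at L4 against L3, which made 1 member higher with a pseudocount of 0.1. Leaving out genes whose FPKM lies outside its own interval removes *his-24*, *hil-3*, *hil-4* and *hil-5* at L4 against L1 by construction, so that 0 members were higher and 1 lower. Over all protein-coding genes, fold alone gave 345 genes higher at L3 against L2 (223 with the intervals) and 178 lower at L4 against L3 (69 with them), and a pseudocount of 0.1 gave 115 lower at L4 against L3. With every library rescaled to the same total, the summed linker histone FPKM was lower at every stage by a like factor (0.807 to 0.820), at 712, 758, 459 and 446 from L1 to L4. Under median-ratio scaling it was 817, 936, 570.4 and 561. Without *his-24* it was 502, 557, 374 and 419 from L1 to L4. Levels below about 1 FPKM, as of *hil-6*, are too low at this depth to compare.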

Other observations

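In 2 pairs of related histone chaperone genes, 1 gene of each pair stood higher at L4 than L1 while its relative stood lower. These pairs were picked after their values were seen. *lin-53* and *rba-1*, also related, both stood lower at L4 than L1 (log2 differences -0.60 and -0.76). *hmg-3*, a relative of the FACT subunit gene *hmg-4*, had 3.90, 4.99, 8.09 and 16.003 FPKM over the stages and met the rule of size at L4 against L1 with a log2 difference of 1.80. *hmg-4* had -0.83 in the same comparison and did not. *asfl-1* and *unc-85* both encode ASF1 chaperones. *asfl-1* stood at 3.05 FPKM at L4, against 1.26 at L1 (log2 difference 0.84), and *unc-85* at 28.8 FPKM at L4, against 37.997 at L1 (-0.39), neither meeting the rule. *asfl-1* stayed between 0.456 and 3.05 FPKM over the stages, and 1 value of *unc-85* lay outside its own interval. Whether these pairs and the linker histone genes differ between soma and germline cannot be told from RNA of whole worms.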
